A study of Mus musculus with 8 samples.

Results

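The 271 PC entries of a small RNA table from mouse Kupffer cells, which are macrophages that reside in the liver, were selected by name: every entry whose name begins with PC was taken, out of 1234 entries in all. These names carry no known microRNA (miRNA), only an arm (5p or 3p) and 2 numbers, and they are treated here as predicted candidates. The method of prediction is not given in the sources used here. Their second number equalled the summed raw value for 155 of the 271. The other entries were 565 with mouse miRNA names and 398 with miRNA names from other species. The 8 libraries came from male mice, 4 Trem2 KO (animals 40, 46, 88 and 90) and 4 littermate WT (animals 35, 37, 80 and 82), 1 library for each mouse. All 8 mice were fed a high-fat diet for 8 weeks, which began when they were 8 weeks old, so no chow-fed group stands beside them. Kupffer cells were sorted by flow cytometry, and libraries were made with the Illumina TruSeq small RNA kit. Trem2 encodes a lipid-binding receptor of macrophages; its mRNA is not measured by small RNA sequencing, so the genotype labels could not be checked here.

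In animals, most miRNAs are cut from a hairpin in a primary transcript by Drosha in the nucleus, and then by Dicer in the cytoplasm, which leaves a short duplex with a 5p and a 3p strand. A smaller class, the mirtrons, takes its hairpin ends from the splicing of short introns, so the 3p strand of a mirtron ends where the intron ends. Prediction tools look for reads that could come from one arm of such a hairpin, and the ends of mature strands are often trimmed or extended by untemplated bases.

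Of the 271 PC sequences, 17 could be tied to an annotated mouse locus or a mouse miRNA, either by a full match to a mouse transcript or a promoter window, or by a run of at least 15 bases shared with a mouse miRNA hairpin or a mouse-named entry. The sequences below are those whose link to a known miRNA could be read base by base. They are given 5′ to 3′ from the deposited table, in lower case where they match the RefSeq hairpin and in capitals for the last bases that do not lie in the hairpin or that differ from it; for the known miRNAs shown beside them, capitals mark the bases that stand in place of those ends.
PC-3p-39362_172: actgtgcctctctgttttcagA
mmu-miR-7043-3p: actgtgcctctctgttttcag
PC-3p-70890_81: ctgtgacacacccgctcccagT
PC-3p-103197_47: ttggttttcctgtttgcacagT
PC-3p-103445_47: tccactgagaggaccacccacT
PC-3p-22504_321: atcacattgccagggatttTT
mmu-miR-23a-3p: atcacattgccagggatttCC
PC-3p-80422_68: tgaggtagtagtttgtacaAA
mmu-let-7g-5p: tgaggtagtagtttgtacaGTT
PC-3p-600278_6: ttgaactgtcaagaaccactggT
mmu-miR-203b-3p: ttgaactgtcaagaaccactgg

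The first 4 PC entries ran to the last base of a known hairpin and then on by 1 base. PC-3p-39362_172 covered the final 21 bases of Mir7043, at chr6:116645978-116645998 on the minus strand (GRCm38), where the hairpin sits in a Rassf4 intron of 1589 bases and its last base is the last base of that intron. The added A was the same as the first base of the Rassf4 exon that follows. PC-3p-70890_81 stood in the same way to Mir3100, at chr7:19086872-19086892 on the plus strand, at the end of a Dmpk intron of 308 bases. Its added T was also the first base of the next exon. PC-3p-103197_47 ended with Mir7065 at chr8:13136112-13136132 on the plus strand, at the end of a Cul4a intron of 163 bases, and there the added T differed from the G that opens the exon. PC-3p-103445_47 ended with Mir7224 at chr2:67675496-67675516 on the plus strand, inside a B3galt1 intron but far from its end. Where the added base equals the next genomic base, as for Mir7043 and Mir3100, a templated and an untemplated base cannot be told apart. The T after Mir7065 did not equal the next base, and the base that follows Mir7224 was not looked up.

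The others began like a known mature miRNA and differed from it in their last bases. PC-3p-22504_321 held the first 19 bases of miR-23a-3p, a miRNA of many cell types, followed by TT (chr8:84208563-84208581 for the 19 bases, plus strand). PC-3p-80422_68 held the first 19 bases of let-7g-5p, a member of the let-7 family, followed by AA (chr9:106178846-106178864, plus strand, in an intron of Wdr82). The name of that entry says 3p, while this run lies on the 5′ side of the let-7g hairpin. Bases 3 to 19 of the entry were also shared with Mir3962, from base 35 of a hairpin of 64 bases. Its first 16 bases were shared with the let-7i hairpin. Which hairpin the name refers to is not given. PC-3p-600278_6 was miR-203b-3p with 1 more base, at chr12:112130887-112130908 on the minus strand, opposite Mir203; it too ran past the last base of its hairpin, and miR-203b-3p itself was low, with at most 11 counts in KO and 27 in WT.

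The remaining entries lay partly in other kinds of RNA and partly in miRNA hairpins. PC-3p-26057_273 matched an exon of Gm42418 at chr17:39847697-39847714, with an annotated ribosomal RNA on the opposite strand. It was not compared with ribosomal RNA sequences outside these annotations, so whether it comes from ribosomal RNA was not tested. PC-3p-237541_13 matched the mitochondrial ribosomal RNA mt-Rnr1. PC-5p-26073_272 and PC-3p-112712_41 shared 16 and 17 bases with Mir5108 and 18 bases with each other. PC-5p-702041_5 shared 18 bases with Mir1843a, in an intron of Dcaf5. PC-5p-653997_5 lay antisense to Mir1945, in the promoter window of Gspt1. PC-3p-464356_7 lay in the promoter window of Ndufs7, in the sense direction and inside an annotated Ndufs7 intron of 107 bases. PC-5p-238207_13 matched 6720427I07Rik and PC-5p-668441_5 matched Exoc6. PC-5p-100403_49 shared 15 bases with an entry named miR-122-5p, a miRNA of hepatocytes. PC-5p-100403_49 had no match among the hairpins and transcripts searched, which may lack some loci. It had 22, 5, 0 and 0 counts in KO 40, 46, 88 and 90, against 0, 22, 0 and 0 counts in WT 35, 37, 80 and 82. Like 139 (51.3%) of the 271 PC entries, it was above 0 only in animals 35 to 46. Its source was not tested.

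A full-length sense match to a GENCODE mouse transcript was found for 4 of the 271 PC entries (1.48%), against 462 of the 565 mouse-named entries (81.8%) and 52 of the 398 entries named from other species (13.1%). None of the PC sequences lay wholly inside a RefSeq mouse miRNA hairpin in the sense direction, against 389 of the mouse-named entries (68.8%). Mouse-named entries carry the names of known miRNAs, so both contrasts with them follow in part from the naming. The 254 PC entries with neither a match nor a shared run made up 93.7% of the entries and 95.2% of the PC counts, and they included all 10 of the most abundant. The mouse genome sequence between annotated transcripts was not searched here. The origin of the 254 was not tested, and their sequences are therefore not shown.

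PC entries were also shorter than known miRNAs. Of the 271, 131 (48.3%) were 19 bases long and 210 (77.5%) had 18 to 20 bases, whereas 65 of the mouse-named entries (11.5%) had 18 to 20 bases and 221 (39.1%) had 22. The median length was 19 bases for the 5p and 19 for the 3p entries, of which there were 139 and 132, against 22 for mouse names. Among the placed entries, 8 of 17 had 21 or more bases, against 61 (22.5%) of all PC entries. All 8 were placed by a run shared with a mouse miRNA or hairpin, so this contrast follows in part from how entries were placed. A T stood first in 81 PC sequences (29.9%), against 217 of the mouse-named entries (38.4%); within the PC entries it stood first in 27.1% of those of 18 to 20 bases and in 39.3% of those of 21 to 25 bases. The median GC content was 52.6% for PC entries and 50.0% for mouse names.

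**Figure D1:**
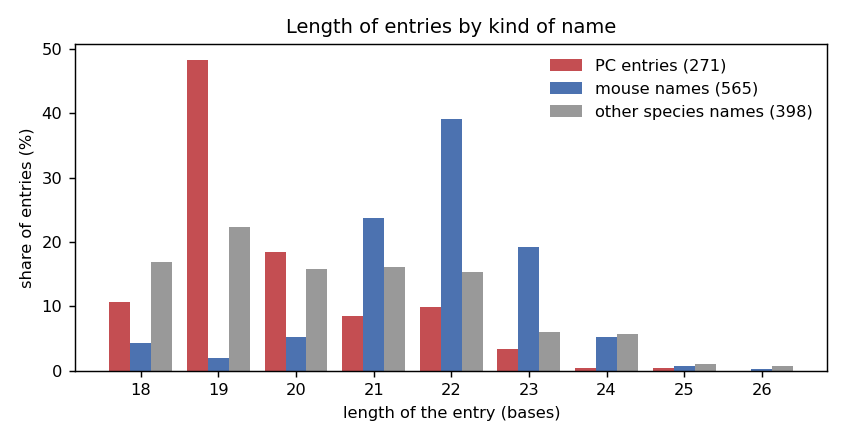
Length of the entries in bases on the x axis and the share of entries of each kind of name, in percent, on the y axis. The bars of the 271 PC entries peak at 19 bases (48.3%), and those of the 565 mouse names at 22 bases (39.1%).

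The libraries held 2129942 to 9443992 counts in all. The 6 myeloid marker miRNAs were above 0 in every library, with a summed level of 112864 to 142813 CPM (counts scaled to the same library total) in KO and 90953 to 168162 CPM in WT. Markers of other cell types were present too. The 4 hepatocyte miRNAs, all above 0 in every library, summed to 9090 to 40972 CPM in KO and 9763 to 139101 CPM in WT, with the highest value in WT 37. In sorted cells measured in bulk, fewer cells of a type and less RNA per cell cannot be told apart. The 2 endothelial miRNAs, above 0 in every library, summed to 12254 to 17903 CPM in KO and 15336 to 19223 CPM in WT, and the stellate markers, of which 2 of 3 had an entry, to 314 to 390 CPM in KO and 317 to 475 CPM in WT. The 3 erythroid miRNAs summed to 618 to 2388 CPM in the 4 mice numbered 80 to 90 and to 5020 to 7355 CPM in the 4 numbered 35 to 46. The 2 lymphocyte miRNAs went the other way, with 2320 to 3490 CPM in mice 80 to 90 and 1610 to 2016 CPM in mice 35 to 46. The mice fell into these 2 ranges of numbers, with 2 KO and 2 WT mice in each; the labels do not say what the numbers stand for, and the ranges are used here only to split the libraries.

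PC entries took a small share of each library. The PC share of all counts was 0.103% in KO 40, 0.180% in KO 46, 0.316% in KO 88 and 0.112% in KO 90, against 0.127% in WT 35, 0.131% in WT 37, 0.0449% in WT 80 and 0.200% in WT 82. The highest share was that of KO 88 and the lowest that of WT 80, and the other 6 libraries lay interleaved between them. The Wilson 95% intervals, which cover counting error only, ran from 0.310% to 0.323% for KO 88 and from 0.0436% to 0.0463% for WT 80. The mean was 0.178 ± 0.0984% in KO and 0.126 ± 0.0634% in WT (SD, n = 4 each), a ratio of 1.42 within the spread of the libraries, and the ratio was 1.05 without KO 88 and 1.17 without WT 80. By animal number, the mean was 0.168 ± 0.117% in animals 80 to 90 and 0.135 ± 0.0323% in animals 35 to 46 (SD, n = 4 each), a ratio of 1.24 with KO 88 and 0.879 without it.

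In counts, the PC entries summed to 3840 to 8250.5 in KO and 3266 to 7739 in WT, while library totals varied more. KO 46 had the smallest total (2129942) and WT 80 the largest (9443992), with PC sums of 3840 and 4243. The PC share in WT 80 also differed in make-up: entries of 21 to 25 bases held 24.3% of its PC counts, against 7.62% in WT 82 and 4.25% to 11.2% in the other 6 libraries. Levels summed by length are given on library totals, without TMM. Summed over the 21 to 25 base entries, the level was 58.4 to 148 CPM in KO and 55.5 to 152 CPM in WT. For the 18 to 20 base entries it was 975 to 3016 CPM in KO and 340 to 1846 CPM in WT, with WT 80 the lowest.

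**Figure D2:**
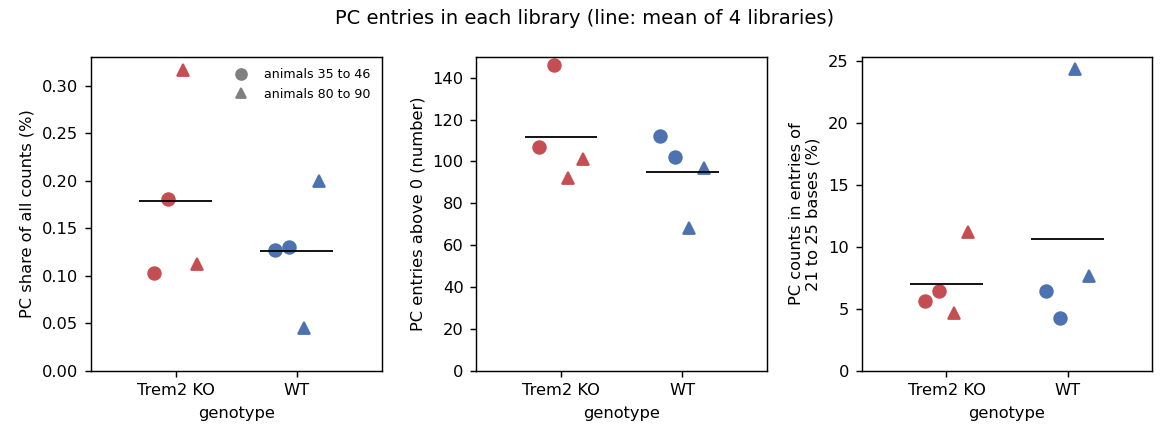
Each point is 1 library, KO on the left and WT on the right of each panel; circles are animals 35 to 46, triangles animals 80 to 90, and lines the mean of 4 libraries. The y axes give the PC share of all counts (percent), the number of PC entries above 0 and the share of PC counts in entries of 21 to 25 bases (percent); WT 80 is lowest in the first 2 panels (0.0449%, 68 entries) and highest in the last (24.3%).

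Most PC entries were detected rarely. Of the 271, 125 (46.1%) were above 0 in 1 library and 33 (12.2%) in all 8, against 34 (6.02%) and 337 (59.6%) of the mouse-named entries. The 33 entries held 74.6% of all 42230 PC counts, and the 10 highest held 56.0%. The median entry had 13 counts summed over the 8 libraries, and 151 entries had fewer than 20. Of the 2168 PC values, 1343 (61.9%) were listed at 0, against 25.2% of the values of other entries. Values under 5 were nearly missing, 8 of 825 above 0 with the lowest at 2.5, against 5.53% in other entries, so a PC value listed at 0 may stand for a few reads and no limit on detection is given for it.

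Which entries were listed above 0 differed between the animal number ranges. The number of PC entries above 0 was 107, 146, 92 and 101 in KO 40, 46, 88 and 90, against 112, 102, 68 and 97 in WT 35, 37, 80 and 82; the groups overlapped. No PC entry was above 0 in animals 80 to 90 alone, and 139 (51.3%) were above 0 in animals 35 to 46 alone. All 125 entries found in 1 library were found in animals 35 to 46: 19 in KO 40, 60 in KO 46, 19 in WT 35 and 27 in WT 37. The same one-sidedness held for mouse names (0 and 38 entries) and for names from other species (0 and 74 entries), at a lower share of the entries. The 139 entries held 2.97% of the PC counts. How the list of entries was drawn up is not given in the sources used here, so a difference in detection and a rule of that list cannot be told apart.

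**Figure D3:**
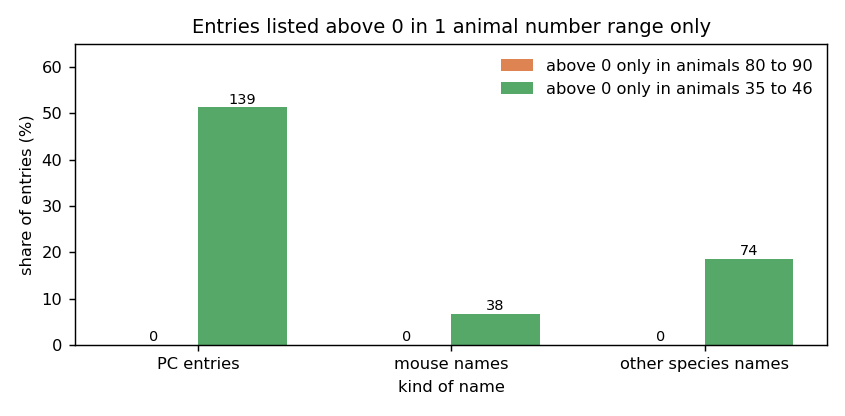
Share of entries (percent, y axis) listed above 0 only in animals 80 to 90 or only in animals 35 to 46, for each kind of name (x axis); the number above each bar is the count of entries. The left bars are all at 0 entries, and the right bars hold 139 PC entries, 38 mouse names and 74 names from other species.

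By genotype, 92 PC entries (33.9%) were above 0 in KO libraries alone and 56 (20.7%) in WT libraries alone. For names from other species these were 47 (11.8%) and 31 (7.79%), and for mouse names 26 (4.60%) and 24 (4.25%). Of the 92, 79 were found in 1 KO library, 9 in 2, 3 in 3 and 1 in all 4, and of the 56, 46 were found in 1 WT library and 10 in 2. KO 46, with 60 entries of its own, supplied most of the entries seen in 1 KO library. The entry above 0 in all 4 KO libraries and listed at 0 in all 4 WT libraries was PC-5p-497621_7, chosen after its values were seen. It had 6, 5, 5 and 7 counts in KO 40, 46, 88 and 90, close to the lowest values that PC entries take, and was too low to enter the test.

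The 10 most abundant PC entries were short, at 18 or 19 bases, and ranked between 181 and 350 among the 1234 entries by mean level. PC-3p-1927_4260, the highest, had 148, 176, 259 and 84.1 CPM in KO 40, 46, 88 and 90, against 191, 332, 25.7 and 113 CPM in WT 35, 37, 80 and 82. All CPM values of single entries are scaled by TMM, like the marker sums. Its 4 KO libraries lay within the range of the WT libraries, with means of 167 ± 72.3 CPM in KO and 166 ± 130 CPM in WT (SD, n = 4 each). PC-5p-4957_1584 had 148, 241, 169 and 77.0 CPM in KO, against 115, 117, 87.1 and 69.1 CPM in WT, in the same order of animals. Of the 10 it varied least, with a highest library 3.49 times the lowest, and its means were 159 ± 67.5 CPM in KO and 97.1 ± 23.2 CPM in WT. PC-5p-2554_3166 had 56.6, 33.9, 210 and 195 CPM in KO, against 35.9, 130, 91.3 and 181 CPM in WT, so that KO 88, KO 90 and WT 82 were its highest libraries. PC-3p-4961_1582 averaged 116 ± 21.7 CPM in KO and 108 ± 59.7 CPM in WT, with a 3.66-fold span over the libraries.

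The other 6 spanned 8.26-fold to 25.6-fold between libraries. PC-5p-3260_2477 had the widest span, with 48.2, 133, 331 and 86.5 CPM in KO and 115, 37, 12.9 and 84 CPM in WT. KO 88 stood highest and WT 80 lowest for that entry. WT 80 was also the lowest library for PC-3p-8068_973, PC-5p-6420_1224, PC-5p-9977_774, PC-3p-25095_284 and PC-5p-27548_257, at 5.17, 5.29, 9.72, 3.32 and 2.21 CPM. The highest values of these 5 were 112 CPM in KO 46, 119 CPM in KO 88, 80.3 CPM in KO 88, 52.4 CPM in KO 46 and 49.6 CPM in WT 37.

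**Figure D4:**
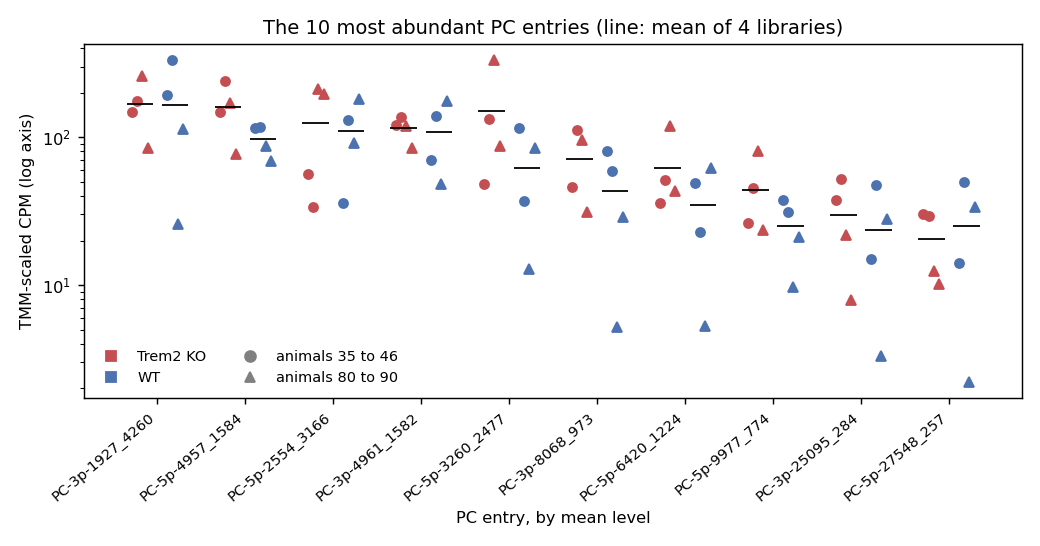
TMM-scaled CPM on a log axis (y) for the 10 most abundant PC entries (x, by mean level); for each entry KO is on the left (red) and WT on the right (blue), circles are animals 35 to 46, triangles animals 80 to 90, and lines means of 4 libraries. The KO and WT points overlap for every entry, and PC-5p-3260_2477 spans 12.9 to 331 CPM.

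Among the PC entries, the profile over the 8 libraries most like that of PC-3p-1927_4260 was that of PC-3p-78600_70 (Pearson r = 0.919 over 8 libraries). For PC-5p-4957_1584 it was PC-5p-74476_76 (r = 0.825), and for PC-5p-2554_3166 it was PC-3p-103445_47 of the Mir7224 locus (r = 0.900). The points share libraries, so these values describe the profiles only. Some PC entries also shared sequence: 21 had a run of at least 14 bases in common with another PC entry. PC-5p-6420_1224 and PC-5p-55988_111 shared 17 bases, and PC-3p-339908_9 and PC-5p-339908_9 had the same sequence and the same values, with 4.5 counts in WT 35 and 7 in WT 82 each. PC-5p-638472_6 lay wholly inside PC-5p-770186_5. Such entries may share reads, and their values are uncertain as to source.

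The placed entries were of low to middling level. PC-3p-39362_172 of Mir7043 had 12, 24, 62 and 136 counts in KO 40, 46, 88 and 90, against 14, 13, 194 and 48 counts in WT 35, 37, 80 and 82. The mouse-named miR-7043-3p, the same sequence without its last base, had 6, 13, 62 and 19 counts in KO and 0, 0, 75 and 52 counts in WT. The longer form was thus the more abundant in 6 of the 8 libraries, equal in KO 88 and lower in WT 82. PC-3p-70890_81 of Mir3100 was above 0 in every library, with 12, 29, 5 and 17 counts in KO and 11, 24, 30 and 10 counts in WT. PC-3p-103197_47 of Mir7065 reached at most 6 counts in KO and 6.5 in WT, and PC-3p-103445_47 of Mir7224 at most 23 in KO and 13 in WT.

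The variants of abundant miRNAs were minor beside them. PC-3p-22504_321 had 34, 12, 0 and 125 counts in KO and 25, 33, 110 and 18 counts in WT, while miR-23a-3p had 16275 to 112818.5 counts in KO and 20547.5 to 188597.5 counts in WT. It amounted to 0.111% of miR-23a-3p at most in KO and to 0.0299% to 0.161% in WT, and was listed at 0 in KO 88. PC-3p-80422_68 amounted to 0.0229% of let-7g-5p at most in KO and 0.0208% at most in WT. PC-3p-26057_273 of Gm42418 was above 0 in every library, at 12.9, 16.7, 23.8 and 5.57 CPM in KO and 9.17, 27.7, 2.83 and 24.4 CPM in WT.

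The difference by genotype was tested with edgeR's quasi-likelihood test over all entries that passed a filter on low counts. The filter left 61 of the 271 PC entries and 627 entries in all, and 210 PC entries were too low to test. No PC entry passed an adjusted p of 0.05, and none of the 627 did (0.0% called); the smallest adjusted p of a PC entry was 0.997. At an unadjusted p of 0.05, 1 PC entry and 2 of all entries passed; DESeq2 and limma-trend also called none, with 6 and 3 of all entries at an unadjusted p of 0.05. No tested PC entry had all KO libraries above or all below the WT libraries, against 0.319% and 0.478% of all tested entries.

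The log2 difference of KO minus WT was above 0 for 47 of the 61 tested PC entries, with a median of 0.49, whereas it was above 0 for 292 of the 627 tested entries (46.6%), with a median of -0.038. The median moved with single libraries in both directions. Without KO 88 the count was 42 of 67 with a median of 0.25, and without WT 80 it was 37 of 61 with a median of 0.33. Without WT 35 it was 52 of 70 with a median of 0.80, and without WT 37 it was 59 of 70 with a median of 0.81. With the number range as a block it was 43 of 61 with a median of 0.39. Within animals 80 to 90 alone it was 59 of 82 with a median of 1.24, and within animals 35 to 46 alone it was 37 of 55 with a median of 0.23. The entries share libraries and are not replicates, so the counts describe these 8 mice and carry no test.

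PC-3p-12295_615 had the smallest unadjusted p (0.025). It had 7.22, 6.32, 131 and 14.3 CPM in KO 40, 46, 88 and 90, against 5.35, 3.66, 2.46 and 11 CPM in WT 35, 37, 80 and 82. The high value was that of KO 88 alone, and the remaining KO libraries overlapped the WT libraries. Its log2 difference was 2.82 ± 1.06 (SE), with an adjusted p of 0.997 by edgeR, and 0.74 without KO 88. PC-3p-21521_337 followed, with 7.52, 17.6, 29.2 and 13.8 CPM in KO and 12.2, 5.29, 3.94 and 3.72 CPM in WT; 3 of 4 KO libraries lay above all WT libraries. PC-5p-58674_105 averaged 21.6 ± 19.3 CPM in KO and 7.17 ± 4.19 CPM in WT, and PC-5p-52332_121 averaged 10.1 ± 6.48 CPM in KO and 3.80 ± 2.99 CPM in WT (SD, n = 4 each). The entries with the smallest p on the other side were PC-5p-31430_222, PC-5p-19773_369, PC-5p-77623_72, PC-3p-36155_189 and PC-3p-91793_56, at log2 differences of -0.53, -0.98, -0.55, -0.38 and -0.67. Their SE ran from 0.66 to 1.77, larger than each difference.

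The split by animal number gave calls. In the same edgeR framework with genotype in the model, 10 of the 61 tested PC entries (16.4%) passed an adjusted p of 0.05, 5 higher and 5 lower in animals 80 to 90 than in animals 35 to 46. This was a smaller share than that of all tested entries, of which 203 of 627 were called (32.4%), 104 higher (16.6%) and 99 lower (15.8%). All 80 to 90 libraries lay above all 35 to 46 libraries for 3 of the 61 PC entries and below them for 6, against 21.4% and 19.8% of all tested entries. However, 6 of the 61 PC entries and 28 of the 627 reached the filter on low counts in libraries of 1 range only. For such entries the filter largely fixed the separation, so these counts are a description, with no test. The median log2 difference was -0.025 for the PC entries and -0.042 for all. Of the 10, 5 reached the filter on low counts in libraries of 1 range only: PC-5p-19773_369 in animals 80 to 90, and PC-5p-66796_88, PC-3p-66568_89, PC-5p-106753_45 and PC-3p-91793_56 in animals 35 to 46. Such entries had to differ to be tested at all, so their values are given as a description, with no test. Among the entries that reached the filter in both ranges, 5 of 55 PC entries were called, against 182 of all 599 (30.4%). Of these 5, PC-3p-48895_132 reached it in 4 libraries of animals 35 to 46 and 1 of animals 80 to 90. The filter asked for 4 libraries, so this entry too was admitted through the range where it was high. Its values are given as a description as well. PC-5p-74476_76, given below, stood likewise. How many more of the 55 and the 599 did so was not counted.

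PC-5p-19773_369, of 22 bases, was far higher in animals 80 to 90. It had 17, 21.6, 44 and 40.5 CPM in KO 88, KO 90, WT 80 and WT 82, against 1.5, 2.71, 0 and 0 CPM in KO 40, KO 46, WT 35 and WT 37. The ranges did not overlap, and the genotypes stood in opposite order within them, WT above KO among animals 80 to 90 and KO above WT among animals 35 to 46. No entry of the table was called for the interaction of genotype with number range (0.0% called, smallest adjusted p of a PC entry 0.930 by edgeR; 3 PC entries and 30 of all entries had an unadjusted p under 0.05).

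The other 4 on that side reached the filter in both ranges and rose in animals 80 to 90. PC-5p-31430_222 had 21.8, 15.6, 28.7 and 37.4 CPM in KO 88, KO 90, WT 80 and WT 82, against 12.3, 7.22, 9.17 and 6.92 CPM in KO 40, KO 46, WT 35 and WT 37, without overlap. Its log2 difference was 1.48 ± 0.45 (adjusted p = 0.030 by edgeR). PC-3p-39362_172, the Mir7043 entry, had 19.9, 21.6, 23.9 and 9.93 CPM in the 80 to 90 libraries, against 3.61, 10.8, 5.35 and 5.29 CPM in the 35 to 46 libraries, in the same order. Only WT 82 and KO 46 overlapped, and its log2 difference was 1.60 ± 0.54 (adjusted p = 0.045 by edgeR). PC-5p-33072_209 averaged 27.2 ± 21.3 CPM in animals 80 to 90 and 4.47 ± 2.06 CPM in animals 35 to 46 (SD, n = 4 each), with WT 80 the one low library of its range at 1.72 CPM. PC-5p-2554_3166 averaged 169 ± 53.3 CPM in animals 80 to 90 and 64.1 ± 45.2 CPM in animals 35 to 46. PC-5p-119755_37, of 22 bases, was not called. It lay at 2.89 to 6.04 CPM in animals 80 to 90 and 0 to 2.29 CPM in animals 35 to 46. This entry reached the filter in animals 80 to 90 only and had to differ to be tested, so its lack of overlap is a description, with no test.

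Of the 5 on the side of animals 35 to 46, 3 were listed at 0 in all 4 libraries of animals 80 to 90. PC-5p-66796_88 had 43, 22, 12 and 17 counts in KO 40, KO 46, WT 35 and WT 37, PC-3p-66568_89 had 65, 16, 15 and 14 counts, and PC-5p-106753_45 had 12, 13, 9 and 11 counts. No fold is given, since 1 side was at 0. PC-3p-91793_56 had 0, 0, 0 and 1.45 CPM in KO 88, KO 90, WT 80 and WT 82, against 5.42, 9.03, 5.73 and 15.9 CPM in KO 40, KO 46, WT 35 and WT 37. PC-3p-48895_132 had 0, 0, 0 and 3.52 CPM in the 80 to 90 libraries, against 21.4, 19.0, 14.1 and 15.5 CPM in the 35 to 46 libraries. In both entries, WT 82 was the one library of its range above 0, and the ranges did not overlap. PC-5p-74476_76, which was not called, had 3.21, 0, 0 and 0 CPM in KO 88, KO 90, WT 80 and WT 82. In KO 40, KO 46, WT 35 and WT 37 it had 5.42, 12.6, 3.44 and 13.8 CPM, without overlap. Since KO 90, WT 80 and WT 82 were at 0, the filter admitted PC-5p-74476_76 mainly through animals 35 to 46. Its lack of overlap is therefore a description, with no test. PC-3p-48895_132 belongs to 5 entries that share runs of at least 14 bases, so these are not independent of each other.

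**Figure D5:**
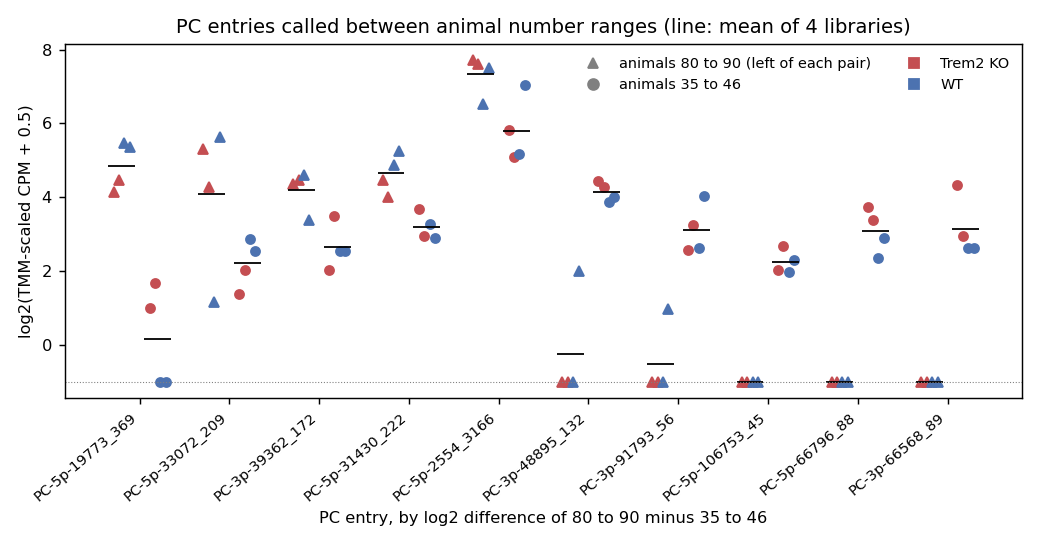
The 10 PC entries past the threshold between animal number ranges (x axis), with log2 of TMM-scaled CPM plus 0.5 in each library (y axis). Entries admitted by the filter only through the range where they were high are given as a description only. Animals 80 to 90 (triangles) are on the left of each pair and animals 35 to 46 (circles) on the right. KO is red and WT blue, lines are means of 4 libraries, and the dotted line marks values listed at 0. PC-5p-19773_369 lies at 17 to 44 CPM on the left and 0 to 2.71 CPM on the right, and the last 3 entries lie at 0 on the left.

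Each of the 5 calls that reached the filter in both ranges was lost with some 1 library left out. That of PC-5p-31430_222 was lost without KO 46, KO 88, WT 35, WT 37 or WT 82 (adjusted p up to 0.106 by edgeR). That of PC-3p-48895_132, given as a description only, was lost without KO 40, KO 46, KO 88, KO 90 or WT 37. PC-5p-33072_209 kept its call only without WT 80 (adjusted p = 0.001 by edgeR, otherwise up to 0.291), and PC-3p-39362_172 only without WT 82 (adjusted p = 0.030, otherwise up to 0.142). PC-5p-2554_3166 kept it in 2 of 8 fits, without WT 37 or WT 80 (up to 0.162). The erythroid and the lymphocyte miRNAs also differed between the ranges, as given above, and their part in these calls was not tested.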

How the data were processed

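One deposited table held the values of all 8 libraries. Its columns named raw held expected counts, as deposited (10 of the 2168 PC values were not whole within 1e-06). Its normalized columns held a signal, which the authors deposited and which equalled the raw value times 1 constant factor per library. Neither the trimming and alignment nor the genome build and the prediction of PC entries is given in the sources used here; a read divided among entries would give values that are not whole. Expected counts were rounded and tested with edgeR 4.0.16 (filterByExpr with a minimum count of 10, TMM, quasi-likelihood, Benjamini-Hochberg over all 627 tested entries, threshold 0.05) in R 4.3.3. CPM of single entries and of the marker sums are TMM-scaled, and CPM summed by length of PC entries are on library totals. Alternatives used DESeq2 1.42.0 and limma 3.58.1 (limma-trend, run on the normalized columns after adding 1 and taking log2). Summaries and figures used Python 3.11.15, pandas 2.3.3 and matplotlib 3.10.9. Sequences were compared as exact strings, on both strands, with GENCODE mouse transcripts, RefSeq miRNA hairpins and RefSeq promoter windows (GRCm38). The genotype test was checked on simulated data with known answers. Those data had less spread between libraries than the genotype fit found (edgeR common dispersion of 0.58). That check therefore does not measure the power of the test here.

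Named PC entries were the 10 with the highest mean level, the 5 with the smallest p in each direction by genotype, the 6 in each direction by number range, those whose sequence equals or lies inside another entry, and the entry whose profile is most like each of the 3 most abundant. The 17 entries tied to mouse loci or miRNAs, PC-5p-497621_7 and PC-5p-119755_37 were added after values were seen. By that rule PC-5p-90990_57 was also named; it was not called by number range (adjusted p = 0.086 by edgeR). The members and lists were chosen with earlier results of these data known. Each library is a separately numbered mouse, and p-values measure the spread between these mice. Total counts per library ran from 2129942 to 9443992; intervals cover counting error only. Entries with no values in the table given were not analysed here.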

Additional observations from a re-analysis of the deposited data

Results flagged for a closer look

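In 4 of 73 groups of 4 libraries, 1 library stood apart from the rest by Dixon's 95% criterion; chance alone gives this in about 1 in 20 groups, or 3.65 of 73. PC-5p-77623_72 was high in KO 40, at 6.62 CPM against 3.16 to 3.53 CPM in the other KO libraries. The same entry was listed at 0.0 CPM in WT 35, against 7.87 to 8.27 CPM in the other WT libraries. PC-5p-638472_6 was at 2.71 CPM in KO 46 and listed at 0 in the other KO libraries. An entry above 0 in 1 library alone meets the criterion whatever its value, so the rate of 1 in 20 does not apply to it. In WT 80, entries of 21 to 25 bases held 24.3% of the PC counts, against 4.25% to 7.62% in the other WT libraries.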

How the results depend on the processing

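No PC entry was called by genotype under any of the alternatives or with any 1 library left out (0 to 0 called). By number range, 10 PC entries were called, 20 with no filter on low counts (the filter admits fewer entries) and 4 to 15 with 1 library left out; the other alternatives gave 9 to 15. Named calls ended with no filter for PC-5p-31430_222 and PC-3p-39362_172 (adjusted p = 0.060 and 0.069 by edgeR) and with limma-trend for PC-5p-33072_209 (0.125). The call of PC-3p-48895_132, given as a description only, ended on library totals. The median log2 difference of all tested entries between ranges was 0.15 on library totals without TMM and -0.042 with TMM, and no called PC entry changed direction. No paired analysis was possible because the KO and WT mice share no numbers; the number range as a block left the genotype calls at 0.

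With 1 library left out, the ratio of PC shares ran from 1.05 to 1.77 for KO over WT and from 0.879 to 1.55 for animals 80 to 90 over 35 to 46. Log2 genotype differences of entries that were not called changed sign in 31 instances. With 1 library left out they ran from -0.36 to 0.63 for PC-3p-1927_4260, -0.19 to 0.53 for PC-5p-2554_3166, -0.17 to 0.42 for PC-3p-4961_1582, -0.065 to 0.98 for PC-3p-25095_284, -0.68 to 0.33 for PC-5p-27548_257, -0.68 to 0.66 for PC-3p-36155_189, -1.66 to 0.63 for PC-3p-91793_56 and -0.58 to 2.32 for PC-5p-74476_76. With the block, PC-5p-2554_3166 was at -0.14 and PC-5p-19773_369 at 0.32. With limma-trend, PC-5p-27548_257, PC-5p-19773_369, PC-5p-77623_72 and PC-3p-36155_189 were at 0.29, 0.99, 0.29 and 0.12. Within animals 35 to 46 alone, an alternative added after seeing the data, PC-3p-1927_4260, PC-5p-2554_3166, PC-5p-31430_222, PC-5p-77623_72 and PC-3p-36155_189 were at -0.64, -0.81, 0.35, 0.34 and 0.11. Within animals 80 to 90 alone, PC-3p-4961_1582 and PC-3p-25095_284 were at -0.10 and -0.039. The cause of these changes was not tested.

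Depth limits statements on low entries: 142 of the 825 PC values above 0 were exactly 5 counts, and 210 of the 271 entries were too low to test.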
